A study of Solanum lycopersicum with 24 samples.

Results

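Heat shock proteins and other molecular chaperones are described here through the N1-methyladenosine (m1A) peaks listed in their mRNAs in tomato fruit. They were the genes of the 12 mRNA peak lists whose description named a heat shock protein, a chaperone, a chaperonin or DnaJ, or whose symbol began with HSP or HSC, with heat shock transcription factors left out. The rule found 31 of 1945 genes with a peak in any library, and 974 of the 1945 had a description that could be searched. The 31 comprised 6 HSP70 genes, 3 HSP90 genes (with an HSP90 activator among them), 7 small heat shock protein genes, 7 DnaJ genes, 3 chaperonin genes and 5 others. Because a gene entered the lists only with a peak, chaperone genes without any peak are not among the 31.

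The libraries came from fruit of the tomato Ailsa Craig (AC, the wild type) and of Never-ripe (Nr), an ethylene receptor mutant, homozygous and in the AC background. RNA fragments were pulled down with an antibody to m1A, a methylated form of adenosine. The groups used were Nr O (6 days after breaker, the stage at which Nr fruit was orange), Nr G (mature green, approximately 39 days post-anthesis), AC Br+6 (6 days after breaker, red ripe) and AC MG (mature green, at the same approximate age of 39 days), with 3 biological replicates each. The titles give only the letters O and G for the Nr groups, which were read as the late and the green stage of the series design. Lists were at hand for the 12 IP libraries, and the 12 inputs were not analysed here.

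Chaperones bind unfolded or partly folded proteins. HSP70 proteins bind and release short exposed stretches in a cycle driven by ATP, DnaJ (HSP40) proteins bring clients to HSP70 and start its ATP hydrolysis, and HSP90 acts later on nearly folded clients. Small heat shock proteins hold unfolded proteins without ATP, chaperonins enclose a chain in a barrel, and ClpB-type proteins pull chains out of aggregates. Small heat shock proteins accumulate in ripening tomato fruit.

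A peak list does not hold the level of a transcript. A gene without a listed peak may be unmethylated, weakly expressed or below the depth of the library, and these cannot be told apart here. In whole fruit, fewer cells of a type and less RNA per cell cannot be told apart either. The lists held 108 to 854 mRNA peaks per library, with a median of 234.5, and their read totals are unknown. AC Br+6 replicate 3 stood apart with 854 peaks, and the counts per group that rest most on it are also given without it. Of 4 ripening genes taken as markers of fruit stage, E8 was called in 2 AC Br+6 and 2 AC MG libraries, ACO1 in 1 AC Br+6 and 2 AC MG libraries, and PSY1 in 1 library of each. PG2A was called in 1 library each of Nr O, AC Br+6 and AC MG. These calls did not separate the AC stages. No gene described as an oleosin, legumin, vicilin or late embryogenesis protein, as seed RNA would bring, was called.

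Chaperone mRNAs carried peaks in every library of 3 groups and in none of the Nr O libraries, which had the shortest lists. The 3 Nr O libraries called 0 chaperone genes, against 9, 3 and 2 in the Nr G libraries. The AC Br+6 libraries called 3, 3 and 16, and each AC MG library called 4. The Nr O counts lay below all others, and those of the other 3 groups overlapped. Taken over a group's 3 libraries, 0 of the 31 genes (0%) were called in Nr O, 12 (38.7%) in Nr G, 21 (67.7%) in AC Br+6 and 9 (29.0%) in AC MG. Of the 974 genes with a description, the same groups called 67 (6.88%), 322 (33.1%), 434 (44.6%) and 434 (44.6%). The 67 of Nr O included the 14 described genes called in all 12 libraries, none of them a chaperone gene. Without AC Br+6 replicate 3, that group called 6 chaperone genes (19.4%) and 13.1% of the described genes. With 1 library left out in the same way, Nr G called 5 to 11 chaperone genes and AC MG 6 to 7. Without Nr G replicate 1, Nr G called 5 chaperone genes (16.1%) and 21.4% of the described genes. Without AC MG replicate 1, AC MG called 7 chaperone genes (22.6%) and 18.9% of the described genes.

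**Figure D1:**
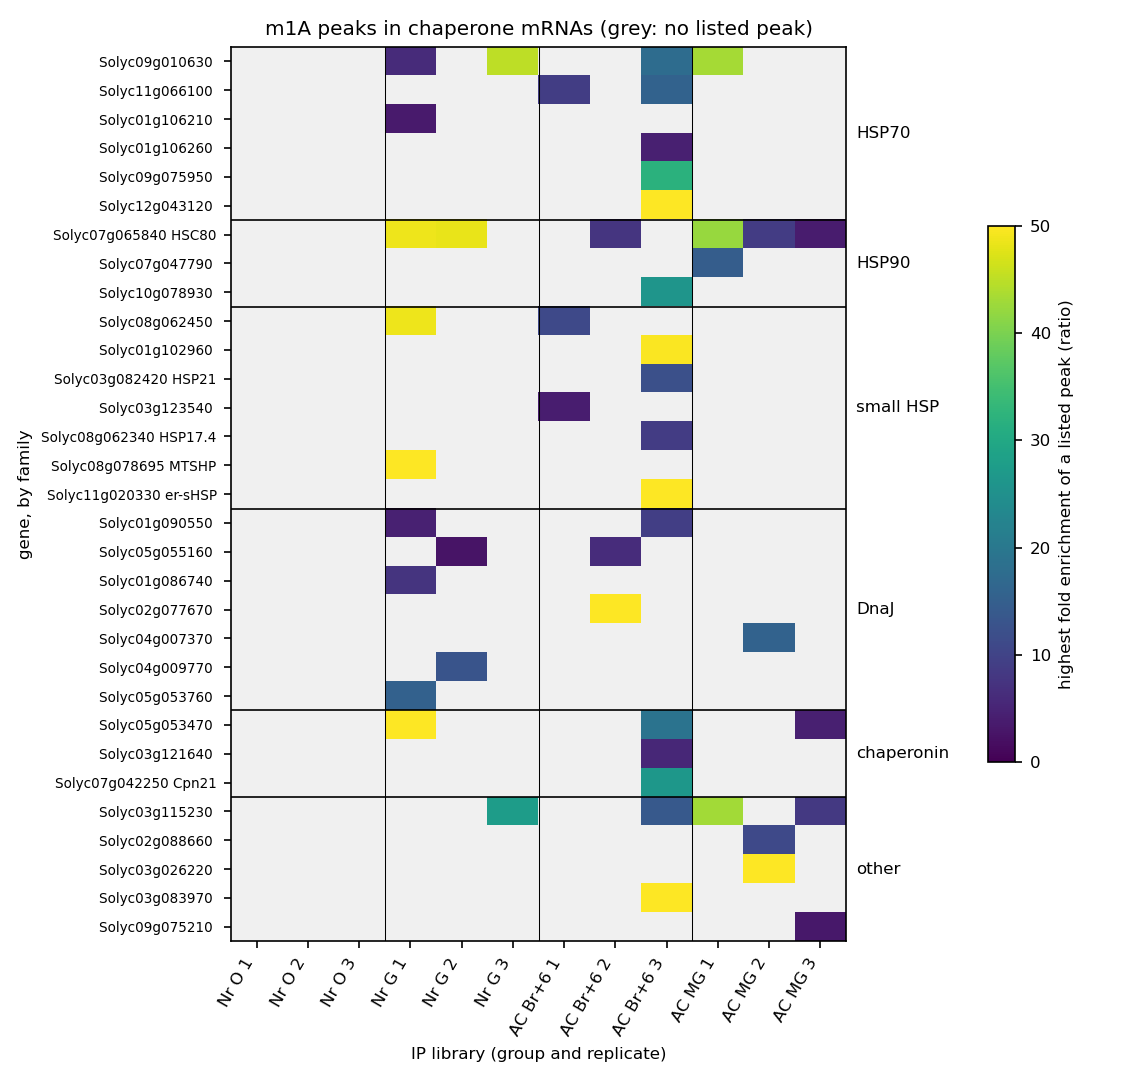
Each row is one of the 31 chaperone genes, ordered by family, and each column an IP library. Colour gives the highest fold enrichment (a ratio, by the authors' peak caller) of the gene's peaks in that list, and grey means that no peak was listed. The 3 Nr O columns are empty, and AC Br+6 replicate 3 holds 16 genes.

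The number of chaperone genes was then set against the length of the list it came from. The Nr O libraries called 28, 42 and 38 genes with a description, and the AC Br+6 libraries with 67 and 82 such genes called 3 chaperone genes each. Over all lists, 31 of the 974 described genes were chaperone genes. Whether the 0 of Nr O differs from what such short lists would hold was not tested. AC Br+6 replicate 3 called 16 chaperone genes among 341 described genes (4.69%), whereas AC MG replicate 1 called 4 among 298 (1.34%). In Nr G replicate 1 the share was 5.49% of 164 described genes. Mean shares were 0% in Nr O, 3.32% ± 1.99 in Nr G, 4.28% ± 0.545 in AC Br+6 and 3.03% ± 1.52 in AC MG (SD, n = 3 each). The shares of the groups other than Nr O overlapped.

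**Figure D2:**
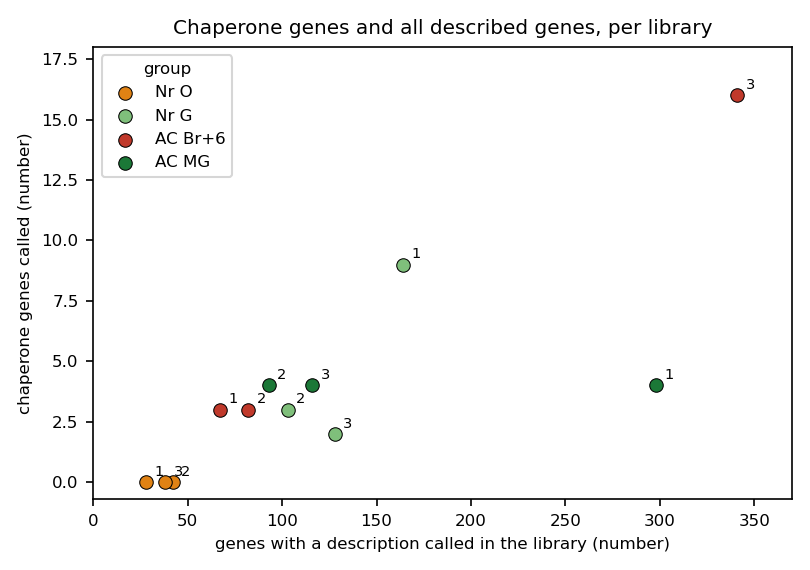
Each point is a library, with its replicate number beside it. The horizontal axis gives the number of genes with a description called in it and the vertical axis the number of chaperone genes. The 3 Nr O libraries sit at 0, and AC MG replicate 1 has 4 chaperone genes among 298 described genes, against 16 among 341 in AC Br+6 replicate 3.

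Most chaperone genes were seen in a single library. Of the 31, 23 (74.2%) were called in 1 library, 4 in 2 libraries and 4 in 3 or more, and HSC80 had the most with 6. Among genes with a description, 77.4% were called in 1 library. None of the chaperone genes was called in 7 or more libraries, where 2.26% of the described genes lay. AC Br+6 replicate 3 was the 1 library with a peak for 11 chaperone genes (35.5%), compared with 22.5% of described genes. Without that library, 20 chaperone genes had a peak in the other 11 libraries, a check added after seeing the data.

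HSC80 (Solyc07g065840, chromosome 7), a heat shock cognate protein of the HSP90 family made without heat stress, was the chaperone mRNA with the most calls. It was called in 0 of 3 Nr O, 2 of 3 Nr G, 1 of 3 AC Br+6 and in 3 of 3 AC MG libraries. Its 8 peaks fell at 2 separate sites, 1444 bases apart. The first site (67566963 to 67567784) was listed in Nr G replicates 1 and 2, AC Br+6 replicate 2 and AC MG replicates 1 and 2. Its fold enrichment was 48.7 and 48.4 in the Nr G lists, 7.68 in the AC Br+6 list and 7.72 and 8.98 in the AC MG lists. These folds ranked at the 83.6th and 79.4th percentile of the 2 Nr G lists, the 36.02nd of the AC Br+6 list and the 34.4th and 31.8th of the AC MG lists, and folds were not tested between libraries. The interval began at base 67567331 in 3 of the 5 libraries. Its length, 375 to 787 bases, ranked at or above the 95th percentile of length in each of the 5 lists.

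The second HSC80 site (67569229 to 67569469) was listed in all 3 AC MG libraries and in 0 of the 9 others. Its fold enrichment was 42.2, 8.36 and 3.81 in AC MG replicates 1, 2 and 3. These folds ranked at the 82.8th, 29.1st and 15.7th percentile of their lists. The peak of replicate 3 had a p-value score of only 34.2. All 3 intervals began at the same base, and those of replicates 2 and 3 also ended at the same base. Across all mRNA genes, 29 of 2436 sites were in exactly 3 libraries, and only such sites can be in 3 libraries of 1 group alone. Of the 29, 2 were in 3 of 3 AC MG libraries and in none of the 9 others (0.0821% of all sites). The second HSC80 site was 1 of these 2. A site here is a run of overlapping peaks of a gene. No site had that pattern for Nr O, Nr G or AC Br+6. The site was singled out after its values were seen, and no test was made of it.

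The other genes of the HSP90 family were each called in 1 library. HSP90-6 (Solyc07g047790), a mitochondrial form, had a peak of 14.7-fold enrichment in AC MG replicate 1. The gene for an activator of the HSP90 ATPase (Solyc10g078930), an AHA1-type co-chaperone, had 2 peaks in AC Br+6 replicate 3, at 26.1 and 23.7-fold. One of these peaks was only 24 bases long, the shortest of any chaperone peak, and the other was 421 bases.

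**Figure D3:**
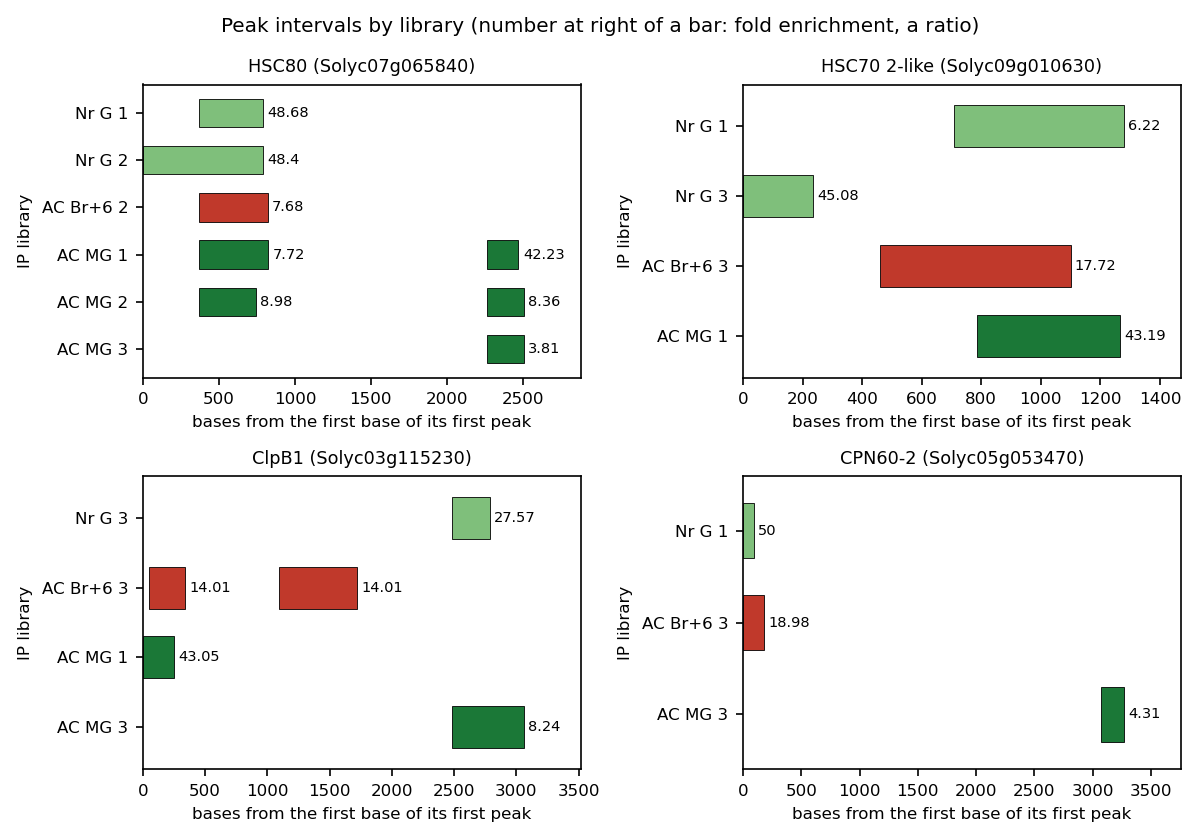
Bars show the listed peak intervals of the 4 chaperone genes called in 3 or more libraries, a row per library, in bases from the first base of the gene's first peak. The number beside a bar is its fold enrichment (a ratio). HSC80 has a site shared by 5 libraries and another held by the 3 AC MG libraries, while the ClpB1 peaks fall at 3 sites.

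Among HSP70 genes, 5 of 6 were called in AC Br+6, 2 in Nr G, 1 in AC MG and 0 in Nr O, where the shares of described genes were 44.6%, 33.1%, 44.6% and 6.88%. All 5 of the AC Br+6 genes were called in replicate 3, which called 35.0% of the described genes. Without it 1 of them was called in that group, where 13.1% of described genes were called. Without AC MG replicate 1, AC MG called 0 HSP70 genes and 18.9% of described genes. Without Nr G replicate 1, Nr G called 1 HSP70 gene and 21.4% of described genes. The HSC70 gene described as 2-like (Solyc09g010630, chromosome 9), a cognate form present without heat stress, was called in 0 of 3 Nr O, 2 of 3 Nr G, 1 of 3 AC Br+6 and in 1 of 3 AC MG libraries. Its peaks in Nr G replicate 1 (6.22-fold), AC Br+6 replicate 3 (17.7-fold) and AC MG replicate 1 (43.2-fold) overlapped within 3967898 to 3968717. The peak in Nr G replicate 3 (45.1-fold) ended 225 bases before that stretch.

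A second HSC70 gene (Solyc11g066100, chromosome 11) was called in AC Br+6 replicates 1 and 3, at 9.02 and 15.7-fold, and in none of the other 10 libraries. Its interval in replicate 3 ran over 1603 bases, the longest chaperone peak, and enclosed the 295 bases listed in replicate 1. Both lie within 52067538 to 52069140. The interval of replicate 3 was the longest of any gene with a description.

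The remaining HSP70 genes had a peak in 1 library each. The gene described as 15-like (Solyc12g043120), whose Arabidopsis namesake is an HSP110-type partner of HSP70, was listed at the ceiling of 50-fold in AC Br+6 replicate 3. The HSP70-8 gene (Solyc09g075950) had a 771-base peak at 31.9-fold in the same library. A pair of mitochondrial HSP70 genes lies on chromosome 1, with 54.8 kb between their peaks. Solyc01g106210 was called in Nr G replicate 1 (3.56-fold) and Solyc01g106260 in AC Br+6 replicate 3 (4.46-fold). Whether reads could be shared between such related copies was not tested, as no sequence of this build was at hand.

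Small heat shock protein mRNAs had peaks in AC Br+6 and Nr G and in no AC MG or Nr O library. Of the 7 genes, 0 were called in Nr O, 2 in Nr G, 6 in AC Br+6 and 0 in AC MG, where 6.88%, 33.1%, 44.6% and 44.6% of described genes were called. Without AC Br+6 replicate 3 that group called 2, where 13.1% of described genes were called. Without Nr G replicate 1, Nr G called 0, where the share of described genes was 21.4%. AC MG called 0 also without its replicate 1, and the share of described genes was then 18.9%. AC Br+6 replicate 3 alone held 4 of the 7 small heat shock protein genes, where 22.5% of described genes were called in that library only. The other 3 of the 7 had a peak without that library. A class II gene (Solyc08g062450, chromosome 8) was called in Nr G replicate 1 (48.7-fold) and AC Br+6 replicate 1 (11.03-fold), with intervals that overlapped within 51172710 to 51173186. A second class II gene, HSP17.4 (Solyc08g062340), lay on the same chromosome with 196 kb between the peaks and was called at 8.80-fold in AC Br+6 replicate 3.

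The small heat shock proteins of organelles were called in 1 library each. MTSHP (Solyc08g078695), of mitochondria, was at 50-fold in Nr G replicate 1. HSP21 (Solyc03g082420), of chloroplasts, had a 460-base peak at 12.2-fold in AC Br+6 replicate 3. The gene er-sHSP (Solyc11g020330) and a 22.7 kDa class IV gene (Solyc01g102960) were listed at 49.9 and 49.7-fold in that library, at the 95.0th and 93.1st percentile of its list. A 17.4 kDa class III gene (Solyc03g123540) was at 4.01-fold in AC Br+6 replicate 1, a weak peak at the 17.3rd percentile.

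Of the 7 DnaJ genes, 0 were called in Nr O, 5 in Nr G, 3 in AC Br+6 and 1 in AC MG, where 6.88%, 33.1%, 44.6% and 44.6% of described genes were called. Of the 5, 2 were called without Nr G replicate 1, where 21.4% of described genes were called. Without AC MG replicate 1, AC MG called 1 DnaJ gene and 18.9% of described genes. The difference between groups was not tested. Solyc01g090550, DnaJ homolog 2, was called in Nr G replicate 1 (4.62-fold) and AC Br+6 replicate 3 (9.37-fold), at sites 1324 bases apart. Solyc05g055160, another DnaJ homolog, was called in Nr G replicate 2 (2.55-fold) and AC Br+6 replicate 2 (6.35-fold), at sites 124 bases apart. Neither gene had a peak that overlapped between libraries.

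The other DnaJ genes were called in 1 library each. DnaJ homolog 1 (Solyc02g077670) reached 50-fold in AC Br+6 replicate 2. The remaining 4 lay between 7.47 and 15.7-fold. They were GFA2 of mitochondria (Solyc01g086740) and DnaJ 20 of chloroplasts (Solyc05g053760), both in Nr G replicate 1, a DnaJ homolog (Solyc04g009770) in Nr G replicate 2 and DnaJ 15 (Solyc04g007370) in AC MG replicate 2.

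All 3 chaperonin genes were called in AC Br+6 replicate 3 and none in the other AC Br+6 libraries. That replicate called 35.0% of the described genes, and the others of the group together called 13.1%. CPN60-2 (Solyc05g053470, chromosome 5), a subunit of the mitochondrial barrel, was called in 0 of 3 Nr O, 1 of 3 Nr G, 1 of 3 AC Br+6 and in 1 of 3 AC MG libraries. Its peaks in Nr G replicate 1 (50-fold) and AC Br+6 replicate 3 (19.0-fold) began at the same base, 64410935. Its peak in AC MG replicate 3 (4.31-fold) lay 2895 bases further, at 64414006 to 64414203. The CPN60-like 2 gene of mitochondria (Solyc03g121640) was at 5.49-fold, and Cpn21 (Solyc07g042250), a co-chaperonin that caps the barrel in chloroplasts, at 26.4-fold.

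ClpB1 (Solyc03g115230, chromosome 3), a disaggregase of the HSP100 family, was called in 0 of 3 Nr O, 1 of 3 Nr G, 1 of 3 AC Br+6 and in 2 of 3 AC MG libraries. Its 5 peaks formed 3 sites. The first (66496455 to 66496793) was shared by AC Br+6 replicate 3 (14.0-fold) and AC MG replicate 1 (43.1-fold), and the second was listed in AC Br+6 replicate 3 alone. The third (66498939 to 66499514) was shared by Nr G replicate 3 (27.6-fold) and AC MG replicate 3 (8.24-fold), whose starts lay 1 base apart.

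BAG proteins are co-chaperones that act on HSP70. BAG 1 (Solyc03g026220) was called at 50-fold and BAG 8 of chloroplasts (Solyc02g088660) at 11.1-fold, both in AC MG replicate 2. BAG 7 (Solyc03g083970) was called at 49.9-fold in AC Br+6 replicate 3. A gene described only as a heat shock protein (Solyc09g075210) had a 3.20-fold peak in AC MG replicate 3.

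By the place named in their descriptions, 7 genes were mitochondrial and 3 chloroplastic. Of the 7 mitochondrial genes, 0 were called in Nr O, 4 in Nr G, 3 in AC Br+6 and 2 in AC MG, against 6.88%, 33.1%, 44.6% and 44.6% of described genes. All 4 of the Nr G calls came from replicate 1 and all 3 of the AC Br+6 calls from replicate 3. Without these libraries, 21.4% of described genes were called in Nr G and 13.1% in AC Br+6. Without AC MG replicate 1, AC MG called 1 of the 7 genes and 18.9% of described genes.

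Changes with ripening in the wild type were asked with AC Br+6 against AC MG. A gene was counted as gained when at least 2 of 3 libraries of the first group had a peak and 0 of 3 of the second did, and as lost in the reverse case, with no test per gene. The HSC70 gene Solyc11g066100 was gained, so 1 of the 26 chaperone genes called in either group (3.85%) was gained, where 1.33% of all 1500 called genes were. No chaperone gene was lost, where 1.87% of all called genes were. The gain needed both AC Br+6 replicates 1 and 3, and the count was 0 without either. HSC80 was lost without AC Br+6 replicate 2, whose peak had a p-value score of 86.2, and also when only peaks with a score of at least 100 were used. ClpB1 was lost without AC Br+6 replicate 3.

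The same stages in Never-ripe were compared with Nr O against Nr G. HSC80 and the HSC70 gene Solyc09g010630 were lost, each with a peak in 0 of 3 Nr O and 2 of 3 Nr G libraries. These were 2 of the 12 chaperone genes called in either group (16.7%), where 7.06% of 751 called genes were lost. No chaperone gene was gained, where 0.666% of all were. Without Nr G replicate 1 neither gene was lost. Without replicate 2 the HSC70 gene was lost and HSC80 was not, and without replicate 3 the reverse held. No chaperone gene was called in all 3 Nr G libraries.

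The genotypes were compared at each stage. Nr G against AC MG gave 0 gained and 0 lost chaperone genes among 17 called, where 1.83% of 1311 called genes were gained and 3.2% lost. The HSC70 gene Solyc09g010630 was gained without AC MG replicate 1, and ClpB1 was lost without Nr G replicate 3. With every list cut to the length of the shortest, HSC80 was gained. Nr O against AC Br+6 gave 0 gained genes (0.204% of all 981 called) and 1 lost of 21 (4.76%), the HSC70 gene Solyc11g066100, where 4.18% of all were lost. That loss was absent without AC Br+6 replicate 1 or replicate 3. Each group entered 2 of the comparisons within and between genotypes, and those 2 share its libraries.

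Single genes were tested over all 12 libraries. Of the 31 chaperone genes, 4 were called in 3 to 9 libraries and entered the test, which covered 140 genes. A gene called in only 3 or 4 libraries cannot reach a p under 0.05 by this test, however its calls fall. ClpB1, CPN60-2 and the HSC70 gene Solyc09g010630 were such genes, so their results could not have passed. HSC80, in 6 libraries, could reach a p under 0.05. The smallest Fisher exact p of any of the 140 genes was 0.0606 for stage and 0.0152 for genotype. Beside these, even a full split of the HSC80 calls could not have passed after adjustment. HSC80 was called in 1 of 6 late and 5 of 6 green libraries (Fisher exact p 0.0801, two-sided, and 1 after Benjamini-Hochberg adjustment across the 140). Over the settings in which it was tested, its p for stage ran from 0.0152 to 0.182 and its adjusted p from 0.431 to 1, so the difference did not pass the adjusted threshold. With lists of equal length no chaperone gene was in enough libraries to be tested. Its lowest p came without Nr G replicate 3 or without AC Br+6 replicate 2. With a p-value score of at least 100 it was called in 0 of 6 late and 4 of 6 green libraries (Fisher exact p 0.0606, adjusted p 0.704). By genotype, HSC80 was called in 2 of 6 Nr and 4 of 6 AC libraries (Fisher exact p 0.567, adjusted p 1). When weaker peaks, those below the median fold of their list, were dropped, HSC80 was called in 1 more Nr than AC library.

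ClpB1 was called in 1 of 6 late and 3 of 6 green libraries and likewise in 1 of 6 Nr and 3 of 6 AC libraries (Fisher exact p 0.545 for each, adjusted p 1). CPN60-2 was called in 1 late and 2 green and in 1 Nr and 2 AC libraries (p 1 for each by the same exact test). The HSC70 gene Solyc09g010630 was called in 1 late and 3 green libraries (Fisher exact p 0.545, adjusted p 1) and in 2 Nr and 2 AC libraries (exact p 1). Each group had 3 biological replicates, and the exact test pooled both genotypes for stage and both stages for genotype. Its p-values measure whether calls went with stage or genotype, and the spread between replicates was not estimated. No chaperone gene passed for stage, where 0% of the 140 genes passed adjusted and 0% had an unadjusted p under 0.05. None passed for genotype, where 0% passed adjusted and 0.714% (1 gene) had an unadjusted p under 0.05. With 6 against 6 libraries these counts do not show that the genes are alike between groups.

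Peak strength and length were read within each list, since neither entered the choice of genes. The 52 chaperone peaks had a median fold enrichment of 14.4, from 2.55 to 50, and all 3852 mRNA peaks had a median of 14.4 as well. A fold of at least 40 was listed for 15 chaperone peaks (28.8%), for 20.6% of the peaks of described genes and for 21.4% of all peaks. Of the 52, 28 (53.8%) were above the median rank of their own list, compared with 48.5% for described genes.

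Chaperone peaks were longer than most in their lists. Their median length was 258.5 bases, from 24 to 1603, compared with 208 for described genes and 198 for all peaks. Of the 52, 40 (76.9%) were above the median rank of length in their own list, where 56.0% of the peaks of described genes were. By family this held for 9 of 10 HSP70 peaks, 9 of 11 HSP90 peaks, all 8 small heat shock protein peaks, 5 of 9 DnaJ peaks, 1 of 5 chaperonin peaks and 8 of 9 others. HSC80 alone gave 8 of the 11 HSP90 peaks and ClpB1 5 of the 9 others, all above that median. Peaks of the same gene are not independent, so these 2 counts rest mostly on 1 gene each. No test was made of it, since the members were chosen together. Listed intervals depend on the list: of 211 peaks named in both the mRNA and the circRNA list of a library, 152 were shorter in the mRNA list and 18 had the same start and end. How far such trimming sets the length differences, or the starts and ends that peaks share between libraries, was not tested.

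**Figure D4:**
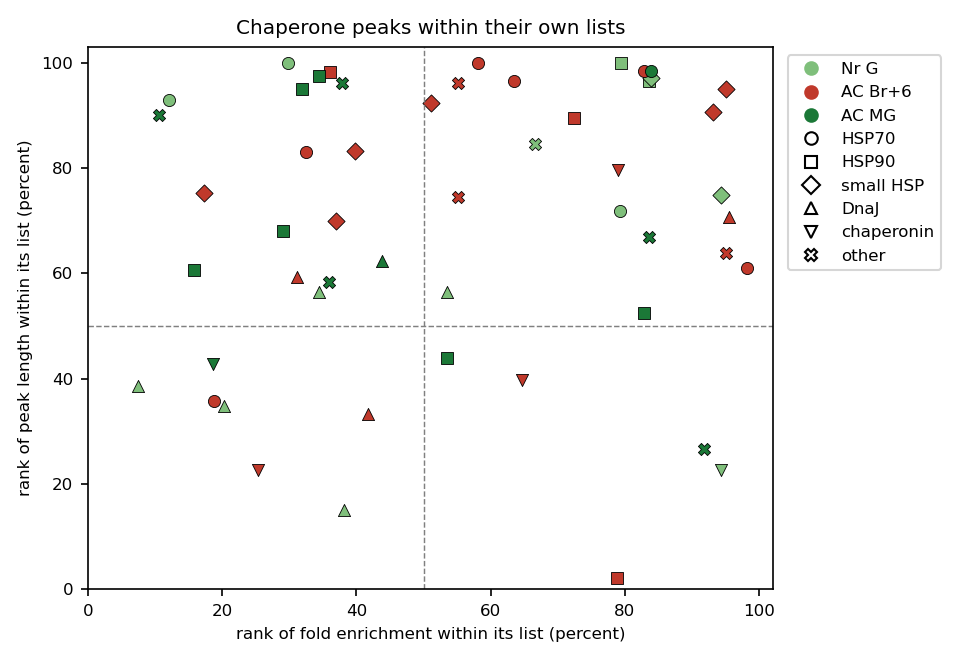
Each of the 52 chaperone peaks is placed by the rank of its fold enrichment (horizontal) and of its length (vertical) within its own list, both in percent. Colour gives the group, shape the family, and dashed lines the middle of a list. Of the peaks, 40 lie in the upper part and 28 to the right, and all 8 small heat shock protein peaks lie in the upper part.

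Peaks of a chaperone gene did not always fall at the same place in different libraries. For the 8 genes called in 2 or more libraries, 20 of 34 pairs of libraries (58.8%) had peaks that overlapped by at least 1 base. The share was 69.8% of 444 pairs for the 190 other described genes called in 2 to 6 libraries. HSC80 gave 12 of its 15 pairs, the HSC70 gene Solyc09g010630 3 of 6, ClpB1 2 of 6 and CPN60-2 1 of 3. With 50% reciprocal overlap, 16 pairs (47.1%) shared a peak, compared with 56.3% for the other described genes. An identical start and end was found in 1 pair (2.94%), AC MG replicates 2 and 3 at the second HSC80 site, compared with 20.5%. Pairs of the same gene are not independent, and no test was made.

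In the circRNA lists, 1 chaperone gene was named as host of a circle with peaks. The circle hosted by the mitochondrial HSP70 gene Solyc01g106210 spans 58979 bases on the plus strand of chromosome 1 (94053644 to 94112622), which takes in the peaks of both mitochondrial HSP70 genes. It held 5 of 434 circRNA peaks, 4 in AC Br+6 replicate 3 and 1 in Nr G replicate 1. Each of the 5 carried the name of an mRNA peak from its own library. Of these, 2 were the peaks of the HSP70 genes and 3 belonged to other genes in between. The peak of Solyc01g106260 covered 327 bases in the circle's list and 157 in the mRNA list, with the same fold of 4.46. No lncRNA peak overlapped a chaperone peak of the same library.

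A further 12 genes were picked by description words for protein folding, heat shock factors or universal stress proteins. Of the 12, 0 were called in Nr O, 2 in Nr G, 6 in AC Br+6 and 8 in AC MG. In these groups 6.88%, 33.1%, 44.6% and 44.6% of described genes were called. Those described as universal stress proteins were Solyc01g100370, Solyc06g009050 and Solyc06g084540. Without AC Br+6 replicate 3 that group called 1 of the 12, where 13.1% of described genes were called. Without AC MG replicate 1, AC MG called 2 of the 12, where the share of described genes was 18.9%. Of the 12, 8 were called in 1 library, 4 in 2 and 0 in more, where 77.4% of described genes were called in 1 library. A call in AC Br+6 replicate 3 or AC MG replicate 1, the longest lists, was found for 10 of the 12. These 2 lists called 35.0% and 30.6% of the described genes, and the share called in either was not computed. HSF24 (Solyc02g090820), the heat shock transcription factor left out by the rule, was called in AC Br+6 replicate 2 at 50-fold and AC MG replicate 3 at 2.71-fold. Cyclophilin (CYP, Solyc01g111170), a prolyl isomerase, was called in Nr G replicate 3 and AC MG replicate 1. A protein disulfide isomerase 5-2 gene (Solyc06g065320), which forms disulfide bonds in the endoplasmic reticulum, was called in Nr G replicate 1 and AC MG replicate 1. T-complex subunits gamma (Solyc05g056310) and epsilon (Solyc05g013990), of the cytosolic chaperonin, were called in AC Br+6 replicate 3, at 49.7 and 10.2-fold.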

How the data were processed

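Of 24 samples, the 12 IP libraries were used through their mRNA, circRNA and lncRNA peak lists, 36 in all. Each list was assigned by the genotype, stage and replicate in its sheet name. Per the labels' protocols, RNA was fragmented, bound by an m1A antibody and treated so that m1A rearranged to m6A. HISAT2 2.0.4 and cutadapt 1.9.3, stand in the submitters' processing notes. Peak names begin with MACS, and neither its settings nor the build are given in the sources used. The deposited fold enrichment is a ratio with a highest value of 50. Per the file headers, the deposited score is 10 times the negative log10 of a p-value. The FDR, a percent as deposited, reads 100 for every peak and was left out. Deposited starts count from 0 (102 circRNA peaks start 1 base below the first base of their circle and 0 on it), so 1 was added. Exons and UTRs were not analysed here for want of an annotation of this build.

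A gene, the Solyc locus of the transcript, was called in a library with at least 1 peak. Genes in 3 to 9 libraries entered a Fisher exact test (two-sided, 6 against 6 libraries), with Benjamini-Hochberg adjustment over all genes tested (Python 3.11.15, scipy 1.17.1), after the code was tested on simulated data. Alternatives were peaks at or above the list's median fold, lists of equal length, a score of at least 100, 3 of 3 against 0 of 3, no filter, exact permutation within the other factor or within replicate number, and each library left out. All 31 members were found by gene number in the RefSeq table. Depth is unknown, so no interval is given. Members, families and lists were chosen with earlier results of these data known. Every member is named, with values by library for those called in 3 or more libraries, gained or lost, or highest in their family.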

Additional observations from a re-analysis of the deposited data

How the results depend on the processing

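No chaperone gene passed the single-gene test for stage or genotype, with a count of 0 under each setting, also with each library left out in turn (0 to 0, with 3 or 4 chaperone genes tested). With lists of equal length 0 chaperone genes were tested, so that count of 0 says nothing. By the Fisher exact test of 6 against 6 libraries, ClpB1, CPN60-2 and the HSC70 gene Solyc09g010630 could not have reached a p under 0.05. In none of these settings could a gene pass after adjustment on its own, even with a full split of its calls. The counts of 0 therefore do not measure how stable the result is. With the replicate number as a block, the count was 0 and HSC80 had an exact permutation p of 0.0833 for stage (adjusted p 1). Replicate numbers did not pair the libraries: deviations from group means correlated at -0.0669 to 0.0722 over 18 same-number pairs, and 4 of 12 libraries correlated best with their own number.

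The counts of gained and lost genes are small and moved with most settings. With peaks at or above the median fold or with equal list lengths, AC Br+6 against AC MG gained 0 in place of 1, Nr O against Nr G lost 1 in place of 2 and Nr O against AC Br+6 lost 0 in place of 1. With equal lengths, Nr G against AC MG gained 1 in place of 0. With a score of at least 100, AC Br+6 against AC MG lost 1 in place of 0, and Nr O against Nr G lost 1, the gene being HSC80 in each. With 3 of 3 against 0 of 3, all of these counts were 0. Leaving out each library, AC Br+6 against AC MG gained 0 to 1 and lost 0 to 1, Nr O against Nr G gained 0 to 0 and lost 0 to 2, Nr G against AC MG gained 0 to 1 and lost 0 to 1, and Nr O against AC Br+6 gained 0 to 0 and lost 0 to 1. A group reduced to 2 libraries had to show 2 of 2 or 0 of 2. HSC80 by genotype differed by 1 library (Nr minus AC) with peaks at or above the median fold, in place of -2. Pairs of libraries sharing a peak numbered 20, and 1 with identical ends. The number of chaperone genes was 31, also by description alone, and 20 without AC Br+6 replicate 3. Genes called in a group, with each of its libraries left out (also chosen after seeing the data), numbered 0 to 0 in Nr O, 5 to 11 in Nr G, 6 to 19 in AC Br+6 and 6 to 7 in AC MG. The cause of these shifts was not tested. Read depth per library is unknown, so a missing weak peak cannot be set against it.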
